A study of Mus musculus with 4 samples.

Results

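The 10 genes described here encode feedback inhibitors and transcriptional targets of ERK signalling: Spry1, Spry2, Spry4, Spred1, Spred2, Dusp4, Dusp6, Etv4, Etv5 and Egr1. They are 10 of 30282 genes in a poly(A) RNA-seq table of V6.5 mouse embryonic stem cells, an established line, in which RPB3, a core subunit of RNA polymerase II, was fused to a mini auxin-inducible degron (mAID) and GFP. They were chosen by function and on measured values of these libraries, because Spry4 and Dusp4 were more than 3-fold lower after RPB3 degradation. What they show between the groups is therefore a description and carries no test. All libraries came from cells grown in 15% fetal bovine serum with the GSK3 inhibitor CHIR99021 at 3 µM and the MEK inhibitor PD0325901 at 0.5 µM, and all received doxycycline at 1 µg/ml for 12 h to induce TIR1, a plant F-box protein that binds the degron when auxin is present. In the untreated group (2 libraries) nothing else was added, and the IAA group (2 libraries) then had the auxin IAA at 500 µM for 12 h. Another sentence of the labels speaks of 1 h of depletion, and this difference is unresolved. The labels give neither the number of clones nor the origin of the replicates, so p-values cover just the differences from library to library, possibly technical ones. Cells treated with IAA but without a degron were not analysed here. The labels name Drosophila S2 cells as a spike-in, and whether the scaling of the table rests on it is not given.

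In stem cells ERK is activated mainly by FGF4, which the cells secrete and which signals through FGF receptors, RAS, RAF and MEK. Active ERK phosphorylates transcription factors of the ETS family and raises a small set of genes that report its activity. Several of these act back on the pathway: Sprouty and Spred proteins restrain it at the level of receptors, RAS and RAF, and dual-specificity phosphatases (Dusp) remove the activating phosphates from ERK. Etv4 and Etv5, with Etv1, form the PEA3 group of ETS factors, and Egr1 is a zinc finger factor of the immediate early response. A MEK inhibitor lowers the activity of ERK, and both groups carried it.

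The promoters of 3 members with unlike changes are shown, 5′ to 3′ on the strand of the gene, from 250 bases before to 50 bases after the RefSeq start on GRCm38.p6. Spry2 and Dusp6 were lower after IAA and Spred2 was not. Capitals mark CGGAA, the core of many ETS binding sequences, on either strand (CGGAA or TTCCG).
Spry2 (chr14:105896770-105897069, minus strand): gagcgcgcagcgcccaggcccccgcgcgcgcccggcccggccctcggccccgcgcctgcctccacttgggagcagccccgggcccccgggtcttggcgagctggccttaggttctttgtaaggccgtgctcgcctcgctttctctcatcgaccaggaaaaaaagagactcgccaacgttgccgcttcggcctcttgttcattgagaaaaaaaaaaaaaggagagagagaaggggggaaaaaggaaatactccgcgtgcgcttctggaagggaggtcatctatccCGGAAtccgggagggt
Dusp6 (chr10:99262981-99263280, plus strand): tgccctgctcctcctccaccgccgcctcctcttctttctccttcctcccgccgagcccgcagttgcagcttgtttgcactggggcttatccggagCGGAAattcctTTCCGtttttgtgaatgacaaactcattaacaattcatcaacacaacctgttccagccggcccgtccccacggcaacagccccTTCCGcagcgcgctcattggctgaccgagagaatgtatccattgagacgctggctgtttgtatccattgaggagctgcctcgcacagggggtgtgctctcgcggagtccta
Spred2 (chr11:19924192-19924491, plus strand): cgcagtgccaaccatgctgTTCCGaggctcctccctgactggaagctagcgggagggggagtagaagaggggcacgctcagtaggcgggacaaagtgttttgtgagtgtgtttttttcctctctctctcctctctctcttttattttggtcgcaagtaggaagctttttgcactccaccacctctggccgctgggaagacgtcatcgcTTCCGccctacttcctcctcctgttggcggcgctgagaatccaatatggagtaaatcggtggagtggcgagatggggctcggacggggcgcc

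Chromosome 18, where Spry4 and Egr1 lie, was left out of the search for member promoters. The shares over all promoters were taken without this filter. On the other chromosomes, the RefSeq table gave 7 promoters for 6 members (Spry1, Spry2, Spred1, Spred2, Dusp6 and 2 for Etv5). CGGAA occurred 3 times in the Dusp6 promoter, 2 times each in those of Spred1 and Spred2 and 1 time in that of Spry2. It was not in the Spry1 window or in either Etv5 window. In all, 4 of the 7 held it, against 29.9% of all 32851 promoters of this length in the table. The longer ETS consensus CCGGAAGT, searched on both strands and containing CGGAA, was in 0 of the 7 (3.89% of all promoters). The CArG box, the motif of serum response factor, was also in 0 of the 7 (1.63% of all promoters). These are matches of letters in a short window, and no binding was measured.

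The recovered reads of the 4 libraries summed to between 8724737 and 9194432. At the scaling of the deposited table the median log2 fold change of all genes tested was -0.11. A second scaling, by median-of-ratios factors that centre the typical gene on no change, placed that median at -0.01. Each member is also given at this second scaling. Of 14928 genes with a mean of at least 10, limma called 28.9% lower and 11.1% higher at a Benjamini-Hochberg adjusted p under 0.05. Under the second scaling it called 20.7% of 14897 genes lower and 20.0% higher. Polr2c, which encodes RPB3, was read at 2726 and 2885 (normalised counts) without and at 3242 and 3158 with IAA (log2 fold change 0.19, SE 0.04; adjusted p = 0.00116), and its exons overlap Dok4 on the other strand. This mRNA level does not check the loss of the protein. Of 9 listed pluripotent cell markers, 8 (Pou5f1, Sox2 and Nanog among them) were read at 3077 or more in every library and Fut4 at 11 to 24. Limma called 3 of them lower and 3 higher. The higher ones were Nanog (0.33, SE 0.03; adjusted p = 4.38e-08), Klf4 (0.52, SE 0.04; adjusted p = 2.37e-09) and Tfcp2l1 (0.27, SE 0.04; adjusted p = 1.22e-05). The lower ones were Tdgf1 (-0.27, SE 0.03; adjusted p = 2.13e-06), Pou5f1 (-0.24, SE 0.04; adjusted p = 8.68e-05) and Zfp42 (-0.15, SE 0.04; adjusted p = 0.0042). Zfp42 was not called at the second scaling (-0.06), while Sox2 (0.19) and Esrrb (0.11) were called higher there. The markers thus stood at 2 lower and 5 higher, so their balance depends on the scaling.

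All 10 members passed the filter, and 7 of them were lower after IAA while 3 stayed within the spread of the libraries. The 7 that met limma's threshold for lower (28.9% of all genes did) were Spry4, Dusp4, Etv4, Egr1, Dusp6, Spry2 and Etv5, and none met it for higher, nor at an unadjusted p under 0.05 (0 of 10). The same 7 met it at the second scaling, and in the same 7 both IAA libraries lay below both untreated ones, which held for 45.6% of all genes tested. Their log2 fold changes (on normalised read count + 1) ran from -1.87 to -0.19, and the median of all 10 members was -0.66. Since the contrast was used to choose the genes, nothing is read from these shares. In bulk RNA, fewer cells of a type and less RNA per cell cannot be told apart.

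**Figure D1:**
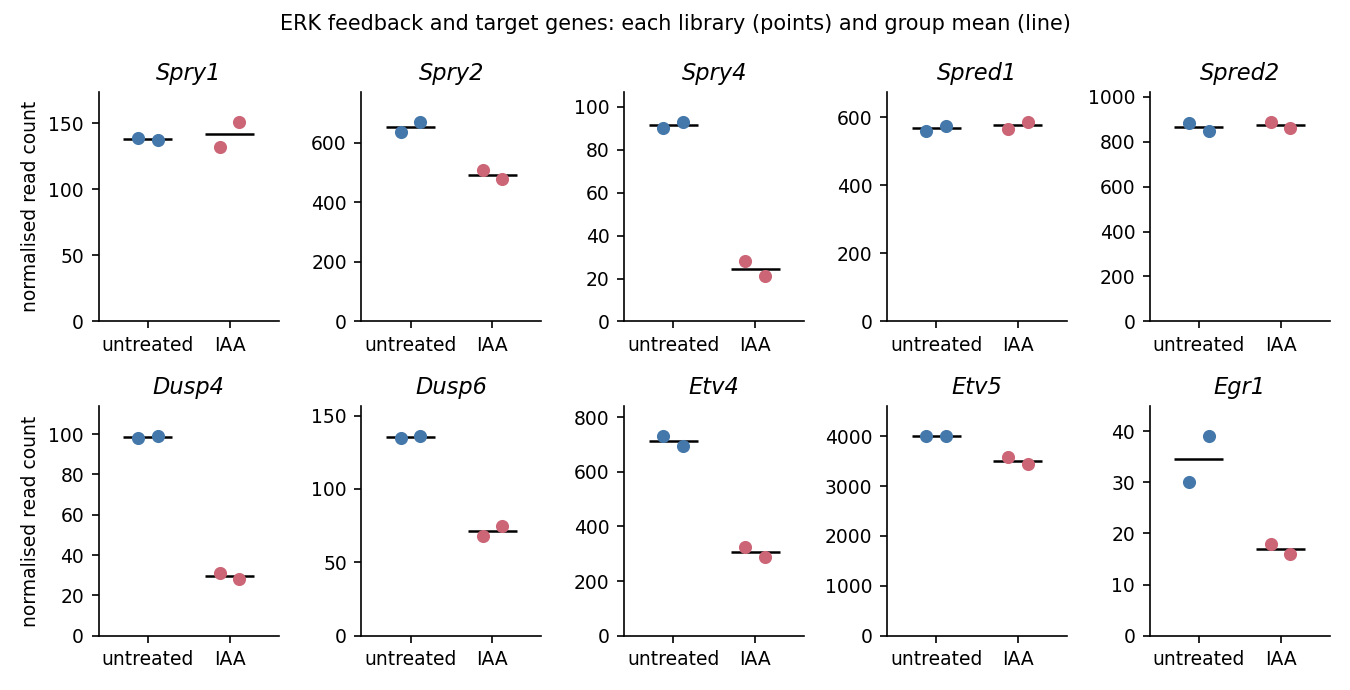
Normalised read counts (y axis, from 0) of the 10 members in the untreated and IAA groups, with 1 point per library and a line at the mean of the 2 libraries. Points of both groups are apart for Spry2, Spry4, Dusp4, Dusp6, Etv4, Etv5 and Egr1, and overlap for Spry1, Spred1 and Spred2.

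The 3 Sprouty genes in the table (Spry3, the fourth, was not in it), whose products are inducible inhibitors of receptor tyrosine kinase signalling, went different ways. Spry4 (ENSMUSG00000024427, GRCm38 chromosome 18, 38586247 to 38601415, minus strand) had 90 and 93 normalised reads in the untreated libraries and 28 and 21 in those with IAA, with no overlap. The group means were 91.5 ± 2.12 and 24.5 ± 4.95 (SD, n = 2 each), 3.73-fold lower, a log2 fold change of -1.87 (SE 0.22; -1.78 at the second scaling). This was the 7th most negative of the 14928 log2 fold changes. Behind it lay 79 and 81 recovered reads in the untreated and 27 and 20 in the IAA libraries, so the IAA level rests on few reads.

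Spry2 (chromosome 14, 105891947 to 105896819, minus strand) was read at 636 and 670 in the untreated and at 508 and 478 in the IAA libraries. Its means of 653.0 ± 24.0 and 493.0 ± 21.2 (SD, n = 2 each) gave a log2 fold change of -0.40 (SE 0.07; -0.31 at the second scaling). Both IAA libraries were below both untreated ones, by far less than for Spry4. Spry1 (chromosome 3, 37639947 to 37644598, plus strand) had 139 and 137 in the untreated and 132 and 151 in the IAA libraries, and the groups overlapped. Its log2 fold change was 0.03 (SE 0.13), and 0.13 at the second scaling, not called at either scaling. A transcript model on the other strand, Gm42922, overlaps 710 of the 2906 exonic bases of Spry1, and the strand setting of the counting is not given, so reads from it may be among these.

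Levels of different genes can be compared only per length, here as normalised reads per kilobase of annotated exon. On that scale Spry2 was the main Sprouty mRNA in every library. It made up 82.0% and 82.8% of the summed level of these 3 Sprouty genes in the untreated and 82.6% and 80.2% in the IAA libraries. The share of Spry4 was 5.09% and 5.04% in the untreated and 2.00% and 1.55% in the IAA libraries. Spry1 went from 12.9% and 12.2% to 15.4% and 18.2%. The summed Sprouty level was 372 and 388 reads per kilobase in the untreated and 295 and 285 in the IAA libraries, and most of that difference lay in Spry2, the gene with the smaller fold change.

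The Spred genes, whose products bring neurofibromin to RAS, lay close together in the 2 groups. Spred1 (chromosome 2, 117121374 to 117182279, plus strand) had 559 and 575 normalised reads in the untreated and 565 and 586 in the IAA libraries, a log2 fold change of 0.02 (SE 0.07). Spred2 (chromosome 11, 19924375 to 20024026, plus strand) had 881 and 848, then 888 and 862, a log2 fold change of 0.02 (SE 0.06). At the second scaling both stood at 0.12 and neither was called. The groups overlapped for both. The third gene of the family, Spred3, whose exons overlap those of Ggn on the other strand, had 131 and 130, then 121 and 136. Its log2 fold change was -0.02 (SE 0.13; limma adjusted p = 0.904) and 0.07 at the second scaling, uncalled at both. Per kilobase of exon, Spred2 made up 63.3% to 65.2% of the summed Spred level over the 4 libraries.

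Of the dual-specificity phosphatases, the 2 members were lower. Dusp4 (ENSMUSG00000031530, chromosome 8, 34807297 to 34819894, plus strand) encodes a nuclear phosphatase of ERK and other MAP kinases. It had 98 and 99 normalised reads in the untreated and 31 and 28 in the IAA libraries, with means of 98.5 ± 0.707 and 29.5 ± 2.12 (SD, n = 2 each), 3.34-fold lower. The log2 fold change was -1.71 (SE 0.20; -1.61 at the second scaling), the 22nd most negative of all. Recovered reads numbered 86 and 86, then 30 and 27. Dusp4 was the member just inside the 3-fold difference that prompted the choice, and Etv4, at 2.32-fold, the next one outside it.

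Dusp6 (chromosome 10, 99263231 to 99267489, plus strand), which encodes a cytoplasmic phosphatase selective for ERK, had 135 and 136 in the untreated and 68 and 75 in the IAA libraries. The means of 135.5 ± 0.707 and 71.5 ± 4.95 (SD, n = 2 each) correspond to a log2 fold change of -0.91 (SE 0.15; -0.82 at the second scaling). In the authors' deposited table its log2 fold change was -0.92 and it was not called.

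Of the 6 other listed phosphatases that were tested, limma called none lower, where 28.9% of all genes were called lower and 11.1% higher. None was lower at an unadjusted p under 0.05 either. The members were chosen with this contrast known, so nothing is read from how these phosphatases differ from them. Dusp9, which also acts on ERK, was the most abundant of the ERK phosphatases per kilobase and had 1074 and 1009, then 1029 and 989 normalised reads (log2 fold change -0.05, SE 0.06; limma adjusted p = 0.56; 0.05 at the second scaling). Dusp7 had 174 and 172, then 162 and 168 with both IAA libraries below both untreated ones (log2 fold change -0.07, SE 0.11; adjusted p = 0.671; 0.03 at the second scaling), and Dusp5, a nuclear ERK phosphatase with an antisense model over its exons, 53 and 57, then 51 and 60 (0.01, SE 0.20; adjusted p = 0.976). Dusp16, which acts mainly on JNK and p38, was higher, with 767 and 695, then 832 and 929 (0.27, SE 0.07; limma adjusted p = 0.00365). Dusp1 (0.21, SE 0.09; adjusted p = 0.055) passed only at other settings, with 0.31 and an adjusted p of 0.00189 at the second scaling, and Dusp10 (0.29, SE 0.22; adjusted p = 0.321) did not pass. Dusp2 was read at 3 or fewer in each library and not tested. Over Dusp4, Dusp5, Dusp6, Dusp7 and Dusp9, the share of Dusp4 in the summed level per kilobase went from 6.54% and 6.89% to 2.36% and 2.17%, and that of Dusp9 from 72.2% and 70.7% to 78.8% and 77.0%.

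The PEA3 factors also differed among themselves, and the most abundant of them, Etv5, stayed closest to its untreated level. Etv4 (ENSMUSG00000017724, chromosome 11, 101769742 to 101785371, minus strand) had 730 and 695 normalised reads in the untreated and 326 and 289 in the IAA libraries. The means of 712.5 ± 24.7 and 307.5 ± 26.2 (SD, n = 2 each) gave a log2 fold change of -1.21 (SE 0.08; -1.11 at the second scaling). Etv5 (chromosome 16, 22381309 to 22439719, minus strand) had 4000 and 3997, then 3584 and 3438, with means of 3998.5 ± 2.12 and 3511.0 ± 103 and a log2 fold change of -0.19 (SE 0.04). At the second scaling it was -0.09, still called, and with library totals it was -0.08 and no longer met the threshold, so its call depends on the scaling.

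Etv1, the third PEA3 gene and no member, was lower by about as much as Etv4. It had 95 and 91, then 38 and 36 normalised reads, with no overlap (-1.31 on the log2 scale, SE 0.19; limma adjusted p = 1.65e-05; -1.21 at the second scaling). The authors' deposited table gives Etv1 an adjusted p of 0.0248. Per kilobase, Etv5 held 80.1% and 80.8% of the summed PEA3 level in the untreated and 89.0% and 89.7% in the IAA libraries. Etv4 held 19.3% and 18.6%, then 10.7% and 9.97%, and Etv1 under 1% throughout (0.587% and 0.568%, then 0.291% and 0.290%). The summed level went from 1217 and 1205 to 981 and 934 reads per kilobase.

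Egr1 (chromosome 18, 34859823 to 34864984, plus strand) was the member with the lowest counts. It had 30 and 39 normalised reads in the untreated and 18 and 16 in the IAA libraries, with means of 34.5 ± 6.36 and 17.0 ± 1.41 (SD, n = 2 each) and a log2 fold change of -0.97 (SE 0.29; -0.88 at the second scaling). Only 26 and 34, then 18 and 15 recovered reads stand behind these values. The authors' deposited table gives Egr1 no adjusted p, and without the filter on low values limma did not call it. The paralogues Egr2, Egr3 and Egr4 were read at 6 or fewer in every library and were not tested.

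**Figure D2:**
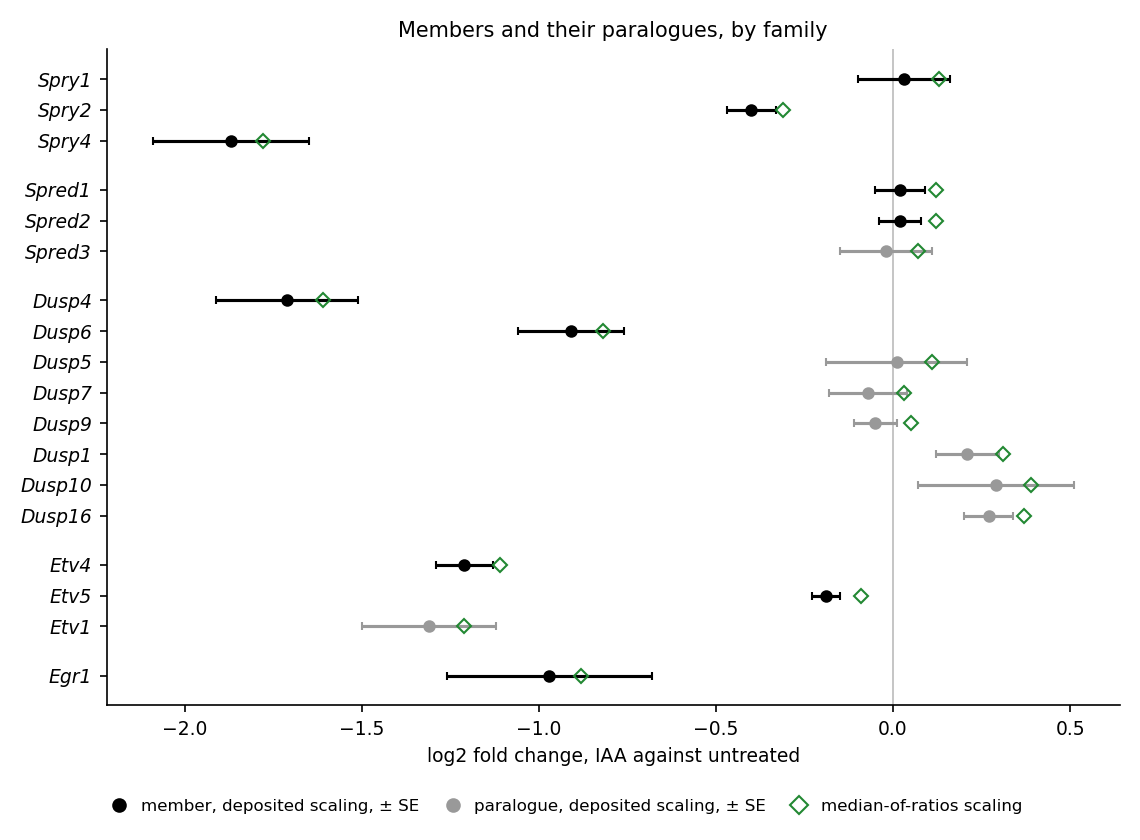
Log2 fold change, IAA against untreated (x axis), of members (black) and paralogues (grey) with the limma SE as bars, and the same value scaled by median-of-ratios factors (open diamonds). Spry4, Dusp4, Etv4, Etv1, Dusp6 and Egr1 lie at -0.82 or lower at both scalings, while the Spred genes lie between -0.02 and 0.12.

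Ordered per kilobase in the untreated libraries, the members ran from Etv5 (975 reads per kilobase) through Spry2 (313), Etv4 (230), Spred2 (187), Spred1 (83.6), Spry1 (47.5), Dusp6 (43.3), Dusp4 (35.9) and Spry4 (19.2) to Egr1 (7.69). In the IAA libraries the order was the same but for Etv4 (99.1), which came to lie below Spred2 (189) and next to Spred1 (84.8). In neither group did the libraries of neighbours in this order overlap, though some lay close, such as Spry4 (5.89 and 4.42) and Egr1 (4.01 and 3.57) after IAA. Exon length here counts all annotated exons, so a gene with long alternative exons is understated.

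**Figure D3:**
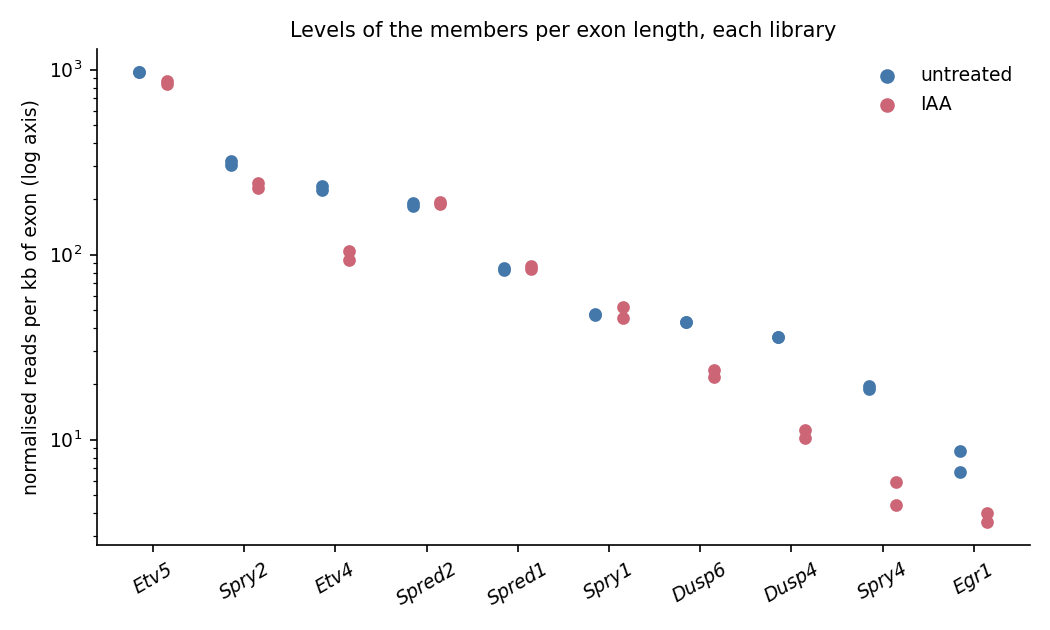
Normalised reads per kilobase of exon (log axis) of each member in each library, ordered by the untreated mean. Etv5 is highest and Egr1 lowest in both groups, and Etv4 falls from above Spred2 to below it.

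Against all genes, Spry4, Dusp4 and Etv4 stood in the low tail. Etv4 was the 151st most negative of 14928 log2 fold changes, Egr1 the 375th and Dusp6 the 466th, whereas Spry2 was at 2911 and Etv5 at 5972. In the authors' deposited table only 67 genes carry the label down and 14 the label up, and 3 members (Spry4, Dusp4 and Etv4) are among those labelled down. By its adjusted p under 0.05 the same 3 of the 9 members with an adjusted p were lower, where 9.57% of all 11495 genes with one were lower and 2.47% higher. Spry2, Dusp6 and Etv5 were not called there, at log2 fold changes of -0.41, -0.92 and -0.19 in that deposited table, close to those of limma.

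**Figure D4:**
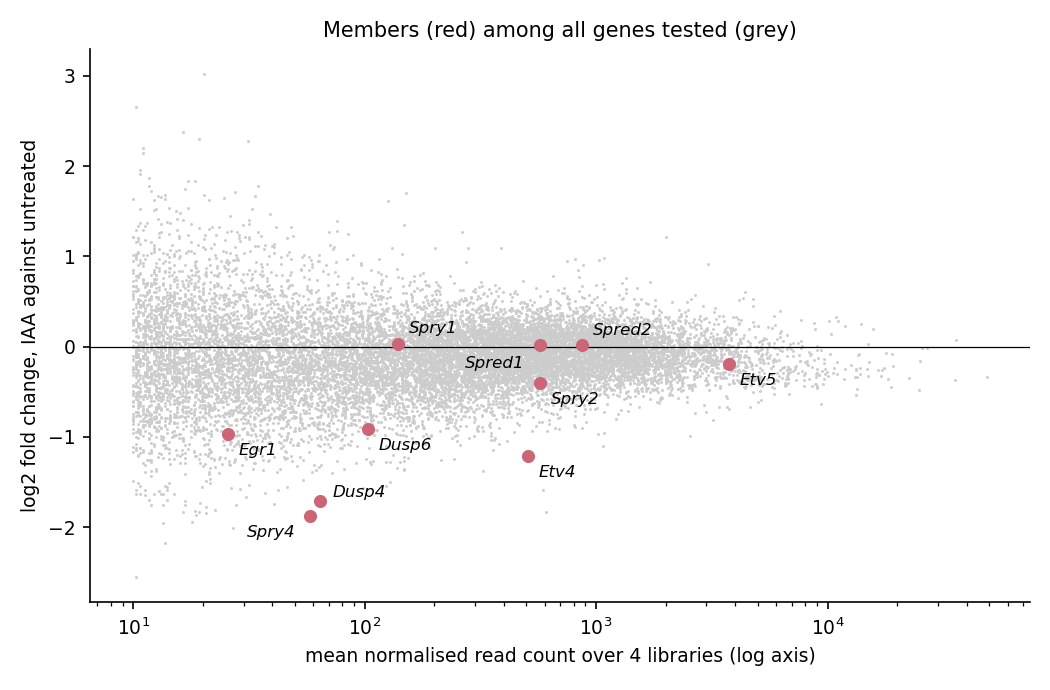
Log2 fold change, IAA against untreated, over the mean normalised read count of the 4 libraries (log axis) for the genes tested (grey) and the 10 members (red). Spry4 and Dusp4 lie near the lower edge of the cloud, and Etv4 lies lower than most genes of its level.

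The members differed in gene structure. Their annotated spans ran from 4259 bases (Dusp6) to 99652 bases (Spred2), with 2 exons in the chosen transcript of Spry1, Spry2, Spry4 and Egr1 and 13 in those of Etv4 and Etv5. The 2 longest members, Spred2 and Spred1 (60906 bases), were both uncalled, and the longest called member was Etv5 (58411 bases). Among the short members, Spry2 (4873 bases) was called and Spry1 (4652 bases) was not. The part of gene length in the results was not tested. AU-rich pentamers (ATTTA), counted in the 3′ UTR of 1 GENCODE transcript a gene, ran from 1.55 to 2.77 per kilobase in the 3 members that were not called and from 0 to 2.34 in the 7 that were. Spry4 had 7 (1.97 per kilobase, percentile 64.5 of 12148 tested genes), Dusp4 had 2 (1.80 per kilobase), Etv4 had 0 and Spred1 had 12 (2.77 per kilobase, percentile 77.4).

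The list of 20 FGF ligands and receptors also held related genes (Fgfbp1, Fgfbp3, Klb, Fgfrl1 and Fgf13). Of the 20, 14 were tested, and limma called 2 lower and 3 higher, where 28.9% of all genes were lower and 11.1% higher. At the second scaling it called 2 and 4, beside 20.7% and 20.0%. Their median log2 fold change was -0.05, beside -0.11 over all genes. Fgf4, the main ligand of these cells, had 2972 and 2966, then 3461 and 3134 normalised reads (0.15, SE 0.05; adjusted p = 0.0118). Without IAA replicate 1 the value of Fgf4 was 0.08. Fgfr1, their main receptor, had 1957 and 1959, then 2347 and 2267 (0.24, SE 0.04; adjusted p = 0.000247). Fgf10 was higher as well (0.50, SE 0.10; adjusted p = 0.000675). Fgf17 (-0.62, SE 0.14; adjusted p = 0.00124) and Fgfr4 (-0.64, SE 0.18; adjusted p = 0.00762) were lower, and without untreated replicate 1 Fgfr4 stood at -0.42. The authors' deposited table calls none of these 5.

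Of the 33 genes of the cascade from adaptors to ERK and the kinases below it, 20 were not called. Limma put 9 lower and 4 higher, close to the shares over all genes (28.9% and 11.1%). At the second scaling it put 3 lower and 13 higher, beside 20.7% and 20.0%. Which genes of this list were called thus depends on the scaling, though the called genes kept their sign. Their median was -0.01, or 0.09 with those factors. Gab1, an abundant adaptor, had 5542 and 5455, then 5648 and 5645 normalised reads (0.04 on the log2 scale, SE 0.03; limma adjusted p = 0.396). At the second scaling Gab1 was called higher, at 0.14. The exception in size was Rps6ka2, a ribosomal S6 kinase (RSK) downstream of ERK, which had 465 and 524, then 229 and 218 normalised reads (-1.14, SE 0.09; adjusted p = 7.62e-09; -1.04 at the second scaling). Rasgrp2, a nucleotide exchange factor of the RAS family, had 341 and 354, then 231 and 196 (-0.70, SE 0.10; adjusted p = 1.18e-05). Rasa1, a GTPase-activating protein of RAS (-0.34, SE 0.07; adjusted p = 0.000801), and the adaptor Frs3 (-0.31, SE 0.10; adjusted p = 0.023) were lower too, Frs3 not at the second scaling (-0.21).

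Of 30 other genes listed as ERK-responsive, with no direction of response given, 28 were tested. Limma called 9 higher and 3 lower, where 11.1% of all genes were called higher and 28.9% lower. At the second scaling these counts were 11 and 2, beside 20.0% and 20.7%. The median was 0.12, beside -0.11 over all genes, and no test of the list was run. Jun, of the immediate early response like Egr1, had 106 and 93, then 158 and 149 (0.62, SE 0.14; adjusted p = 0.00107). Klf2, a factor of the naive state whose protein ERK destabilises, had 2683 and 2875, then 3810 and 3684 (0.43, SE 0.04; adjusted p = 1.59e-07), and Epha2, a receptor kinase, 1638 and 1580, then 2127 and 2128 (0.40, SE 0.05; adjusted p = 8.84e-07). Hmga2 (-0.67, SE 0.17; adjusted p = 0.00367) and Ier3 (-0.57, SE 0.14; adjusted p = 0.00386) were lower, like Spry4 and Dusp4. Elk3 was the third called lower (-0.41, SE 0.14; adjusted p = 0.0211), though not at the second scaling (-0.32). Of the 13 listed paralogues, 12 were in the table and 8 were tested, and 1 was called lower (Etv1) and 1 higher (Dusp16).

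**Figure D5:**
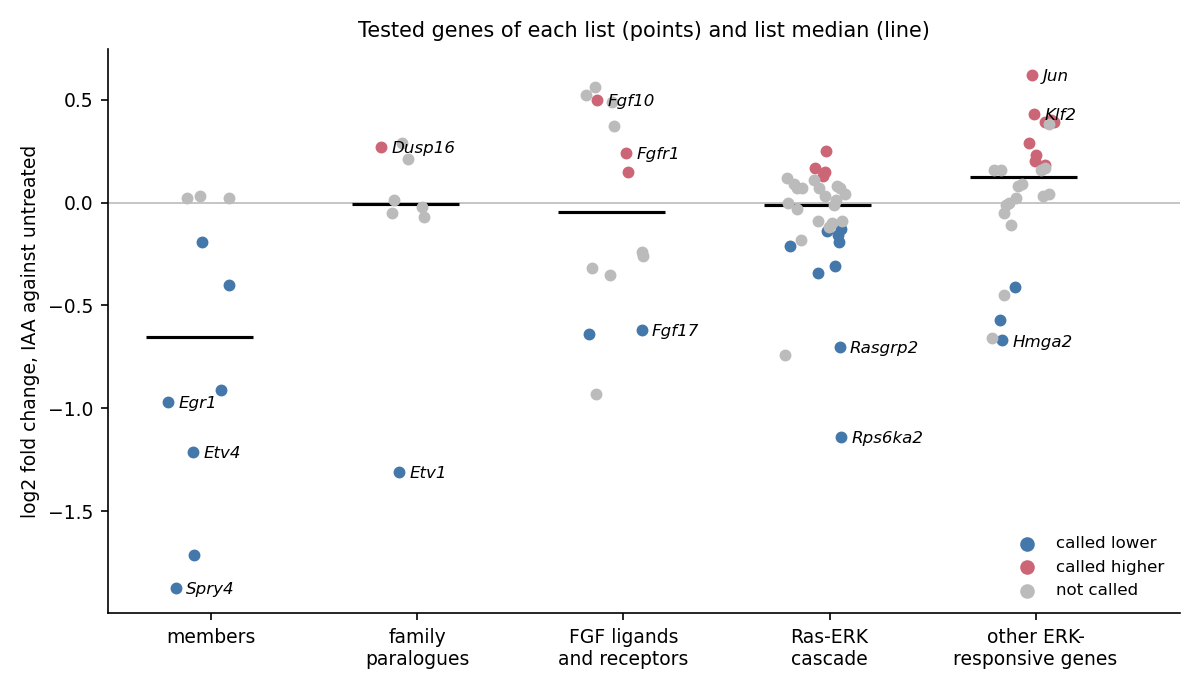
Log2 fold change, IAA against untreated, of the tested genes of 5 lists (points; blue called lower, red called higher, grey not called), with the list median as a line. The median is -0.66 for the members, -0.01 for their paralogues, -0.05 for FGF ligands and receptors, -0.01 for the cascade and 0.12 for other ERK-responsive genes.

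Distances were taken over the 4 libraries on log2 values less each gene's untreated mean. Members, predicted genes and pseudogenes were left out. Among the remaining genes with a mean of at least 30, those nearest to Spry4 were Pdk1 (distance 0.425), Pde9a (0.442), Kndc1 (0.475), Utf1 (0.491) and Rassf4 (0.526). Nearest to Dusp4 among the same genes were Pdk1 (0.177), Pde9a (0.267), Kifc3 (0.318), Rassf4 (0.357) and Utf1 (0.359). With 2 groups of 2 libraries, this likeness says little more than that these genes had similar fold changes, such as -1.59 for Pdk1 and -1.57 for Pde9a.

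Some markers of other cell types were lower after IAA. Fibroblast markers summed to 425 and 495 normalised reads in the untreated and 349 and 358 in the IAA libraries. Of these, 2 of 3 tested were called lower (Thy1 and Col1a1), where 28.9% of all genes were, or 20.7% at the second scaling. The authors' deposited test called neither (adjusted p = 0.0911 for Thy1 and 0.381 for Col1a1). Pdgfrb (234 and 253, then 232 and 223; log2 fold change -0.10, SE 0.10) was not called. Dcn, Lum and Postn were not in the table. Col1a2 was read at 9 or fewer and Col3a1 at 2 or fewer, and neither was tested. Primitive endoderm markers summed to 1253 and 1315, then 778 and 839, and the difference lay in Lama1 (992 and 1086, then 557 and 583). Lama1 was the 1 of 6 tested that was called lower, beside the same shares over all genes. Gata4 (120 and 113, then 119 and 137) and Pdgfra (34 and 31, then 42 and 41) were not lower. Gata6 (-0.87, SE 0.46), Dab2 (-0.46, SE 0.24) and Sox17 (-0.35, SE 0.31) had negative log2 fold changes and were not called. Foxa2 and Sox7 were read at 3 or fewer. Their part in the results was not tested.

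Leaving out any 1 library ended every call, among the members and elsewhere. Limma then called 0 of 14928 genes, with a smallest adjusted p of 0.0929 to 0.111 and 4734 to 5070 genes at an unadjusted p under 0.05, so calls at this size need both libraries of each group. Among the 7 lower members, with 1 library left out, the log2 fold change of Spry4 ran from -2.07 to -1.67, of Dusp4 from -1.78 to -1.64, of Etv4 from -1.30 to -1.13, of Dusp6 from -0.98 to -0.84, of Egr1 from -1.15 to -0.79, of Spry2 from -0.45 to -0.36 and of Etv5 from -0.22 to -0.16.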

How the data were processed

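Poly(A) RNA of 2 untreated and 2 IAA libraries was compared, each placed by its title. Among the tools, the submitters' processing notes list STAR, featureCounts, DESeq2 and cutadapt 1.18, with no role for any, and builds mm10 and dm6. Annotation and strand setting: not given in the sources used here. Per library, the values that the authors deposited are scores: each is a count of reads over a size factor (0.88, 0.87, 0.98 and 0.95, found from the values), rounded to a whole number. Their average per gene, before rounding, is a deposited signal column. From the authors' own test come the deposited log2 fold change and its error, the Wald score, and the p-values and adjusted p-values. Multiplying back gave whole reads in 100% of genes (within 0.001).

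Genes with a mean of at least 10 were fitted as log2(value + 1) by limma 3.58.1 under R 4.3.3 (empirical Bayes trend, Benjamini-Hochberg over 14928 genes, called at an adjusted p under 0.05), which understates changes of low genes. The procedure was tested on simulated data. No count test was run on scaled, rounded values. The members and lists were chosen with earlier results of these data known. Named genes are the members, their paralogues, Polr2c, the 4 called genes of largest change and the 2 most abundant of each pathway list. The 5 genes nearest to Spry4 and to Dusp4, outside the members and predicted genes, are named too. One gene that this rule names is not reported here. Marker genes named besides these were picked after their values were seen. Gene positions, exon lengths and UTRs are from GENCODE M21 on GRCm38 (mm10), which held 30214 of the 30282 gene IDs, and promoters from RefSeq on GRCm38.p6. Replicate numbers were not used as pairs. Alternatives were other scalings, pseudocounts, filters and thresholds, each library left out, a replicate block, voom on recovered reads, the authors' test and, added after seeing the data, unrounded values.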

Additional observations from a re-analysis of the deposited data

How the results depend on the processing

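With 2 libraries a group and few reads for Egr1, Spry4 and Dusp4, precision is limited. The 7 lower members kept their direction in all settings run. No pseudocount and no replicate block changed a call of a named gene. The block fit called 7 members lower and 0 higher, as the fit without it did; the replicate numbers share only a number (correlation of same-numbered deviations 0.0015 over the genes tested). The 2 other scalings, by median-of-ratios factors and by library totals, gave 2984 and 3060 genes higher in place of 1650, 2 and 2 paralogues higher in place of 1, and for the cascade 3 and 3 lower in place of 9 and 13 and 13 higher in place of 4. Voom on recovered reads, unrounded values and a mean of at least 50 each gave 2 paralogues higher (Dusp1 besides Dusp16). Without a filter limma called 638 genes lower and 179 higher, 3 members lower (Dusp4, Dusp6 and Etv4), 0 paralogues higher, 0 FGF genes lower and 0 higher, 1 cascade gene lower and 0 higher, and 0 other ERK-responsive genes lower and 2 higher. At an adjusted p under 0.01 it called 1037 genes higher, and in the cascade 4 lower and 0 higher. By the authors' deposited adjusted p, 1100 genes were lower and 284 higher, 3 members lower, 0 paralogues higher, 0 FGF genes lower and 0 higher, 2 cascade genes lower and 0 higher, and 0 other ERK-responsive genes lower and 3 higher. Where these tests gave 0, an unadjusted p under 0.05 gave, in limma without a filter, 0 paralogues higher, 1 FGF gene lower and 3 higher, 2 cascade genes higher and 3 other ERK-responsive genes lower, and in the authors' test 0, 1, 2, 0 and 0. The causes of these differences were not tested.

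Without 1 library each of these counts was 0 to 0 in limma, where at an unadjusted p under 0.05 there were 6 to 7 members lower, 1 paralogue lower and 0 to 1 higher, 0 to 3 FGF genes lower and 2 to 4 higher, 3 to 6 cascade genes lower and 0 to 4 higher, and 1 to 4 other ERK-responsive genes lower and 7 to 10 higher; such a fit takes the lone library's spread from the group that still has 2. Signs turned for uncalled genes near 0: Dusp5 (0.01) to -0.005 with voom, -0.002 unrounded and -0.001 in the authors' deposited table, and without 1 library it ran from -0.11 to 0.12; Dusp7 to 0.03 and 0.04, Dusp9 to 0.05 and 0.06 and Spred3 to 0.07 and 0.08 with median-of-ratios factors and library totals. Without 1 IAA library Spred3 stood at 0.06, Spry1 (up to 0.13 without another) at -0.06 and Spred1 at -0.005, and Spred2 at -0.01 and -0.004 without untreated replicate 2 and IAA replicate 1.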
